A study of Homo sapiens with 6 samples.

Results

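The genes described here encode the ligands and receptors of the semaphorin, ephrin, netrin and SLIT guidance systems, chosen by name from the table of all genes: names that begin with SEMA, PLXN, EPHA, EPHB, EFNA, EFNB or UNC5, or that are NRP, ROBO, SLIT or NTN followed by a number. Of 12659 rows, 51 matched. One of them, UNC50, shares only its first letters with the UNC5 netrin receptors and was set aside, which left 50 genes, 26 ligands and 24 receptors. Their RNA was measured in NCI-H1650Re, a derivative that the labels place after transformation to small cell lung cancer, and in its parent NCI-H1650, an established human lung adenocarcinoma line with an activating EGFR deletion, which the labels place before it. Polyadenylated RNA was sequenced in 3 libraries of each line, and the comparison asks what changed between these states. The labels do not say how NCI-H1650Re was derived, whether it is 1 clone or whether the replicates are separate cultures. The p-values below therefore cover the spread among these libraries, which may be technical.

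Guidance cues were first known for steering axons, and epithelial and tumour cells use the same proteins to control adhesion, repulsion and migration. Semaphorins are secreted or membrane-bound ligands of plexins, large receptors that act on the cytoskeleton through small GTPases. Most of the secreted class 3 semaphorins also need a neuropilin as co-receptor. Ephrins stay on the membrane and bind Eph receptor tyrosine kinases on the neighbouring cell, A ephrins through a lipid anchor and B ephrins as transmembrane proteins that can themselves signal. Netrins bind UNC5 receptors and DCC, and SLIT proteins bind ROBO receptors.

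Levels below are FPKM (fragments scaled to transcript length and library depth), which the authors computed per library and gene. The scaling to length lets levels of different genes be set side by side, but it removes no other difference between genes. Sums, shares and ratios across genes are therefore approximate. Estimated depth was 18.1 to 21.6 M fragments in NCI-H1650Re and 17 to 22.3 M in NCI-H1650. Replicate 3 correlated less with replicates 1 and 2 than these did with each other in both lines (Pearson r of log2 levels across genes, 0.980 and 0.988 against 0.994 in NCI-H1650Re, and 0.988 and 0.990 against 0.997 in NCI-H1650). Of 6 epithelial markers all were listed, with summed levels of 3017 to 3041 FPKM in NCI-H1650Re and 3456 to 4575 FPKM in NCI-H1650. Within that sum KRT19 (log2 difference -3.59), CDH1 (-0.82), EPCAM (-0.50) and KRT8 (-0.46) fell, and KRT7 (0.35) and KRT18 (0.13) did not pass. Of 6 neuroendocrine markers 2 were listed, CHGA and SYP. Their summed levels were 4.01 to 6.93 FPKM in NCI-H1650Re and 1.26 to 2.64 FPKM in NCI-H1650. CHGA rose, at 2.22, 5.15 and 2.79 FPKM in NCI-H1650Re against 0.11, 0.35 and 1.23 FPKM in NCI-H1650 (limma adjusted p = 0.0101). SYP overlapped, at 1.79, 1.78 and 1.37 FPKM in NCI-H1650Re against 1.15, 1.12 and 1.41 FPKM in NCI-H1650, and did not pass (0.124). None of 4 alveolar or 3 endothelial markers was listed. No source used here states a filter for the table, so a gene that is not listed was not read as silent. Of 5 fibroblast markers 2 were listed, with summed levels of 12.1 to 13.6 FPKM in NCI-H1650Re and 11.6 to 11.9 FPKM in NCI-H1650, of 3 neuron markers 2, at 37.3 to 46.5 FPKM in NCI-H1650Re and 30.4 to 33.7 FPKM in NCI-H1650 (nearly all of it TUBB3, while MAP2 was at 1.81 ± 0.390 FPKM in NCI-H1650Re and 2.20 ± 0.238 FPKM in NCI-H1650), and of 3 leukocyte markers 1, CD14, at 0.13 to 0.29 FPKM in NCI-H1650Re and 1.09 to 1.86 FPKM in NCI-H1650. The part of these differences in the results below was not tested.

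Guidance genes were well represented in both lines. The highest were PLXNB2, NTN4, EPHA2, SEMA4B, PLXND1, EPHB4, NTN1 and SEMA3C, and 16 of the 50 genes, 9 ligands and 7 receptors, averaged at least 10 FPKM in both lines. Summed over the 26 ligands, levels were 279, 286 and 310 FPKM in NCI-H1650Re replicates 1, 2 and 3, against 347, 364 and 330 FPKM in those of NCI-H1650, so that the lines did not overlap. The sum over the 24 receptors was 287, 276 and 253 FPKM in NCI-H1650Re and 263, 285 and 287 FPKM in NCI-H1650, and there they overlapped. In bulk RNA, fewer cells with a transcript and less of it per cell cannot be told apart.

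**Figure D1:**
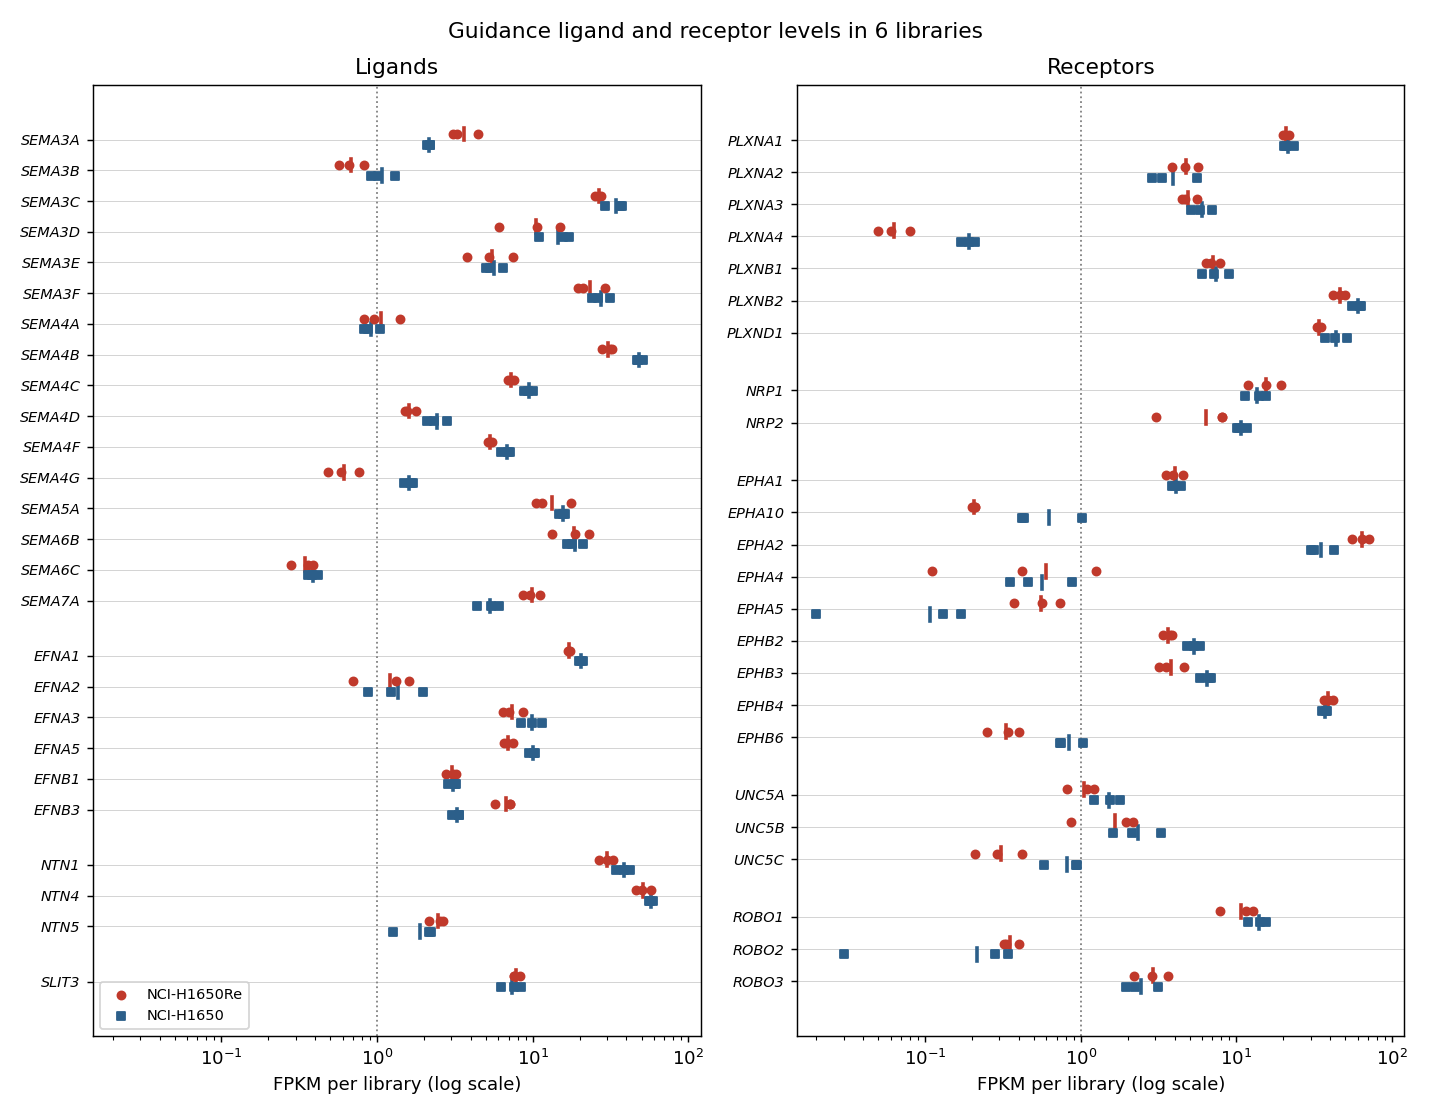
Level of each of the 50 guidance genes in each library, in FPKM on a log axis, grouped by family, ligands on the left and receptors on the right. Red circles are the 3 NCI-H1650Re libraries, blue squares the 3 NCI-H1650 libraries, short bars their means, and the dotted line marks 1 FPKM, the mean a gene had to reach in either line to be tested. SEMA4B, EFNA5 and EFNB3 separate the lines among ligands and EPHA2, EPHB2 and EPHB3 among receptors, whereas EPHB4, PLXNA1 and SLIT3 overlap.

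Tests were run with limma on log2(FPKM + 1) over all genes that averaged 1 FPKM or more in at least 1 line, and differences are NCI-H1650Re minus NCI-H1650 on that scale, which understates the change of low genes. Of the 42 guidance genes tested, 4 rose and 12 fell at a Benjamini-Hochberg adjusted p under 0.05, and 26 did not pass. That is 38.1% of them, 9.52% higher and 28.6% lower, against 30.5% of all 11764 tested genes, 16.6% higher and 13.9% lower. The ligands held most of the calls: 3 rose and 9 fell among 25 tested (48.0%), whereas among 17 tested receptors 1 rose and 3 fell (23.5%). Whether the share of calls differs between ligands and receptors was not tested, and the contrast moved with single libraries: without NCI-H1650Re replicate 2 it was 6 ligands and 3 receptors, without NCI-H1650 replicate 2 it was 5 and 3, and without both replicate 3 libraries 16 of 24 ligands and 9 of 17 receptors passed. The median log2 difference was -0.24 for ligands and -0.23 for receptors, against 0.03 for all tested genes. The receptor median was -0.12 without NCI-H1650Re replicate 3, -0.13 without NCI-H1650 replicate 3 and -0.016 without both, and the ligand median without both was -0.29. All 16 genes called, and NRP2, PLXND1 and SEMA3B, which did not pass, had libraries that did not overlap between the lines. Over the 42 genes, that is 4 higher and 15 lower without overlap, against 47.2% of all tested genes, 26.3% higher and 21.0% lower.

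The 4 rises were those of the ligands EFNB3, SEMA7A and SEMA3A and of the receptor EPHA2. The 12 falls were those of SEMA4B, SEMA4G, SEMA4C, SEMA4F, SEMA4D, SEMA3C, EFNA5, EFNA1, NTN1, EPHB3, EPHB2 and PLXNB2. Leaving out NCI-H1650Re replicate 2 gave 4 rises and 5 falls, and leaving out NCI-H1650 replicate 2 gave 3 rises and 5 falls, while 1898 of 11757 and 1785 of 11763 genes of the whole table passed in these settings. Without both replicate 3 libraries 6 rose and 19 fell among 41 tested, while 5080 of 11767 genes passed. With 3 libraries per line, the smallest p of a two-sided exact permutation test is 0.1. All 16 genes reached it, as does any gene whose libraries do not overlap between the lines, which 47.2% of all tested genes did not.

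**Figure D2:**
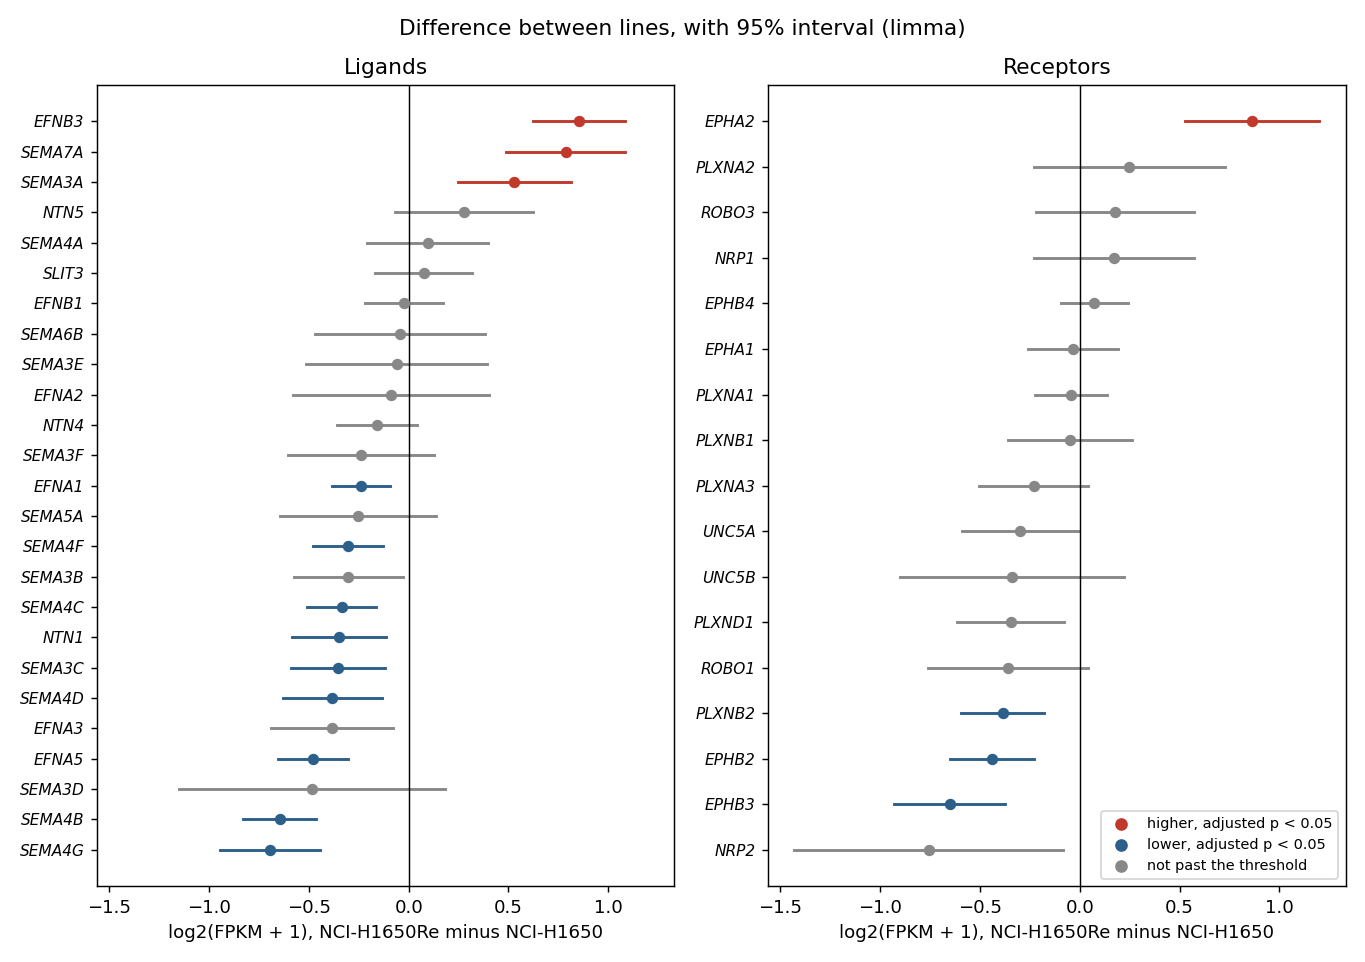
Difference between the lines for the 25 ligands and 17 receptors tested, NCI-H1650Re minus NCI-H1650 in units of log2(FPKM + 1), with the 95% interval from limma. Points are estimates, red for genes that rose, blue for genes that fell and grey for genes not past the threshold. Calls lie mostly on the left of 0, with EFNB3, SEMA7A, SEMA3A and EPHA2 alone among the calls on the right.

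The class 4 semaphorins, transmembrane ligands that signal mostly to B plexins, moved most evenly: of 6 tested, 5 fell and none rose, and their summed level was 46.4 ± 2.43 FPKM in NCI-H1650Re and 69.4 ± 3.08 FPKM in NCI-H1650 (SD, n = 3 each). SEMA4B carried most of that sum. It was at 32.2, 27.96 and 31.4 FPKM in NCI-H1650Re replicates 1, 2 and 3, against 47.2, 51.3 and 46.4 FPKM in those of NCI-H1650. All 3 NCI-H1650Re libraries lay below the lowest NCI-H1650 library (log2 difference -0.65, SE 0.08, limma adjusted p = 0.00139), and its share of all semaphorin FPKM was 19.3 ± 1.49% in NCI-H1650Re and 24.9 ± 0.638% in NCI-H1650.

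SEMA4G had a larger relative fall from a low level, to 0.48, 0.77 and 0.59 FPKM in NCI-H1650Re against 1.69, 1.49 and 1.64 FPKM in NCI-H1650 (log2 difference -0.70, SE 0.11, limma adjusted p = 0.00342). It is one of the few guidance genes with deposited counts, 45, 77 and 50 in NCI-H1650Re and 176, 134 and 130 in NCI-H1650. The mean FPKM was 0.382 times that of NCI-H1650, a change that log2(FPKM + 1) compresses. In the authors' deposited table its log2 fold change is -1.42 with an FDR of 1.07e-06. SEMA4G averaged 1 FPKM or more only in NCI-H1650, so it passed the filter through the line where it was high. Limma with no filter gave it an adjusted p of 0.00212, in a setting where 29.3% of all 12659 genes passed.

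SEMA4C, a ligand of plexin-B2, was at 7.55, 7.23 and 6.92 FPKM in NCI-H1650Re, against 8.83, 10 and 9.35 FPKM in NCI-H1650 (log2 difference -0.34, SE 0.07, limma adjusted p = 0.0134). SEMA4F was at 5.34, 5.47 and 5.13 FPKM in NCI-H1650Re and at 7.13, 6.97 and 6.28 FPKM in NCI-H1650 (log2 difference -0.30, SE 0.08, limma adjusted p = 0.0205). Both were lower in every NCI-H1650Re library than in any NCI-H1650 library. SEMA4D, a plexin-B1 ligand also known as CD100 on lymphocytes, was at 1.78, 1.55 and 1.5 FPKM in NCI-H1650Re against 2.10, 2.33 and 2.80 FPKM in NCI-H1650 (log2 difference -0.38, SE 0.11, limma adjusted p = 0.0303). SEMA4A, the member that did not pass, was at 1.06 ± 0.303 FPKM in NCI-H1650Re and 0.917 ± 0.119 FPKM in NCI-H1650. Without NCI-H1650Re replicate 2 the limma adjusted p was 0.0558 for SEMA4C, 0.0632 for SEMA4F and 0.105 for SEMA4D, and without NCI-H1650 replicate 2 it was 0.0691, 0.0911 and 0.0900. SEMA4F also missed without NCI-H1650 replicate 1 (0.0736), and SEMA4D without NCI-H1650 replicate 3 (0.0722) or without both replicate 3 libraries (0.0710).

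The class 3 semaphorins, secreted and mostly ligands of neuropilins, went both ways, with 1 rise and 1 fall among 6. SEMA3A, which repels growing axons through NRP1 and A plexins, was at 4.48, 3.27 and 3.05 FPKM in NCI-H1650Re, against 2.19, 2.19 and 2.10 FPKM in NCI-H1650 (log2 difference 0.53, SE 0.12, limma adjusted p = 0.0155). Replicate 1 of NCI-H1650Re was the highest, and the lowest NCI-H1650Re library still exceeded each NCI-H1650 library. SEMA3C, the most abundant member of the class, was at 27.6, 26.7 and 25.2 FPKM in NCI-H1650Re and 37.3, 36.5 and 29.1 FPKM in NCI-H1650 (log2 difference -0.35, SE 0.10, limma adjusted p = 0.0338). Its libraries did not overlap, although NCI-H1650 replicate 3 came within 2 FPKM of the highest NCI-H1650Re library. The SEMA3A call was lost without NCI-H1650 replicate 2 (limma adjusted p = 0.0573). The SEMA3C call was lost without any 1 library except NCI-H1650 replicate 3, with limma adjusted p = 0.0507, 0.1001 and 0.0563 for NCI-H1650Re replicates 1, 2 and 3, and 0.109 and 0.129 for replicates 1 and 2 of NCI-H1650.

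The other class 3 members did not pass. SEMA3F, a ligand of NRP2, was at 23.2 ± 5.23 FPKM in NCI-H1650Re and 27.3 ± 3.74 FPKM in NCI-H1650, and SEMA3B was at 0.683 ± 0.127 FPKM in NCI-H1650Re and 1.08 ± 0.204 FPKM in NCI-H1650. SEMA3E, which binds plexin-D1 directly, was at 5.49 ± 1.86 FPKM in NCI-H1650Re and 5.61 ± 0.745 FPKM in NCI-H1650. SEMA3D was spread widely, at 6.06, 10.6 and 15.01 FPKM in NCI-H1650Re and 17.1, 15.7 and 10.9 FPKM in NCI-H1650, and the lines overlapped. SEMA3D passed without both replicate 3 libraries (log2 difference -0.94, limma adjusted p = 0.00858), and so did SEMA3F (-0.31, 0.0191).

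Among the remaining semaphorins SEMA7A rose. It encodes a lipid-anchored ligand of plexin-C1 and of integrins. Its level was 8.6, 11.2 and 9.64 FPKM in NCI-H1650Re against 5.40, 4.36 and 6.08 FPKM in NCI-H1650 (log2 difference 0.79, SE 0.13, limma adjusted p = 0.00418), and each NCI-H1650Re library lay above all of NCI-H1650. The transmembrane ligands SEMA5A and SEMA6B did not pass: SEMA5A was at 13.2 ± 3.90 FPKM in NCI-H1650Re and 15.6 ± 0.690 FPKM in NCI-H1650, and SEMA6B at 18.4 ± 4.96 FPKM in NCI-H1650Re and 18.6 ± 2.24 FPKM in NCI-H1650. SEMA5A passed without both replicate 3 libraries (log2 difference -0.50, limma adjusted p = 0.00221). SEMA6C, a relative of SEMA6B, was under the filter at 0.343 ± 0.0569 FPKM in NCI-H1650Re and 0.387 ± 0.0306 FPKM in NCI-H1650.

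Plexins, the receptors of these ligands, had 1 fall and no rise among 6 tested, with a summed level of 117 ± 5.55 FPKM in NCI-H1650Re and 143 ± 9.21 FPKM in NCI-H1650. PLXNB2, which with PLXND1 made up 68.0 ± 2.37% of that sum in NCI-H1650Re and 72.8 ± 3.42% in NCI-H1650, was at 50.03, 41.6 and 46.3 FPKM in NCI-H1650Re against 55.5, 62.5 and 63.1 FPKM in NCI-H1650 (log2 difference -0.39, SE 0.09, limma adjusted p = 0.0155). SEMA4B and PLXNB2, the most abundant semaphorin and the most abundant plexin, thus both fell, and the ratio of SEMA4B to PLXNB2 FPKM was 0.665 ± 0.0182 in NCI-H1650Re and 0.803 ± 0.0597 in NCI-H1650. The PLXNB2 call was lost when replicate 2 of NCI-H1650Re was left out (limma adjusted p = 0.0659) and when replicate 2 of NCI-H1650 was (0.0706).

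PLXND1, a receptor first known from blood vessels, missed the threshold although its libraries did not overlap, at 35.1, 33.1 and 33.5 FPKM in NCI-H1650Re and 42.9, 51.7 and 36.8 FPKM in NCI-H1650 (limma adjusted p = 0.0565). PLXNA1 was at 20.8 ± 0.897 FPKM in NCI-H1650Re and 21.4 ± 1.69 FPKM in NCI-H1650, with a 95% interval of the log2 difference from -0.22 to 0.14. PLXNB1, the SEMA4D receptor, was at 7.06 ± 0.731 FPKM in NCI-H1650Re and 7.39 ± 1.47 FPKM in NCI-H1650. PLXNA2, at 4.74 ± 0.907 FPKM in NCI-H1650Re and 3.92 ± 1.46 FPKM in NCI-H1650, and PLXNA3, at 4.92 ± 0.567 FPKM in NCI-H1650Re and 5.97 ± 0.928 FPKM in NCI-H1650, are class 3 semaphorin receptors and did not pass either. Without both replicate 3 libraries PLXND1 passed as lower (log2 difference -0.45, limma adjusted p = 0.00877) and PLXNA2 as higher (0.36, 0.0321).

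The neuropilins, co-receptors of class 3 semaphorins and of VEGF, did not pass. NRP1 was at 19.3, 15.5 and 11.9 FPKM in NCI-H1650Re and 15.5, 13.9 and 11.3 FPKM in NCI-H1650 (log2 difference 0.17, SE 0.17, limma adjusted p = 0.477). In both lines its replicate 3 was the lowest, and the lines overlapped. NRP2 was at 8.02, 8.06 and 3.03 FPKM in NCI-H1650Re and 10.4, 11.6 and 10.04 FPKM in NCI-H1650 (log2 difference -0.76, SE 0.29, limma adjusted p = 0.0839). All NCI-H1650Re libraries lay below NCI-H1650, with replicate 3 far below the others. Without both replicate 3 libraries NRP2 passed (log2 difference -0.41, limma adjusted p = 0.00626).

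Of the 4 A ephrins 2 fell, and of the 2 B ephrins 1 rose, while the other 3 did not pass. The A ephrins summed to 32.6 ± 0.564 FPKM in NCI-H1650Re and 41.7 ± 2.95 FPKM in NCI-H1650, and the B ephrins to 9.71 ± 0.818 FPKM in NCI-H1650Re and 6.33 ± 0.214 FPKM in NCI-H1650. EFNB3, which can signal in reverse through its cytoplasmic tail, was at 7.19, 7.18 and 5.73 FPKM in NCI-H1650Re against 3.02, 3.37 and 3.34 FPKM in NCI-H1650 (log2 difference 0.85, SE 0.10, limma adjusted p = 0.00120). This was the guidance gene with the lowest limma adjusted p, and its mean was 2.07 times that of NCI-H1650. The deposited counts behind it were 471, 499 and 334 in NCI-H1650Re and 217, 210 and 183 in NCI-H1650. EFNB1, the other B ephrin, was at 3.01 ± 0.211 FPKM in NCI-H1650Re and 3.08 ± 0.189 FPKM in NCI-H1650, with a 95% interval of the log2 difference from -0.22 to 0.17. The ratio of EFNB3 to EFNB1 FPKM was 2.23 ± 0.359 in NCI-H1650Re and 1.06 ± 0.109 in NCI-H1650.

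EFNA5, an A ephrin known from the mapping of retinal axons, was at 7.44, 6.52 and 6.83 FPKM in NCI-H1650Re against 10.4, 10.2 and 9.51 FPKM in NCI-H1650 (log2 difference -0.48, SE 0.08, limma adjusted p = 0.00376). The 24 nearest tested genes around it on chromosome 5 had a median log2 difference of -0.40, and 15 of them fell and none rose. EFNA1, a ligand of EPHA2 and the most abundant ephrin, was at 17.4, 17.1 and 16.8 FPKM in NCI-H1650Re and 20.9, 20.5 and 19.7 FPKM in NCI-H1650 (log2 difference -0.24, SE 0.06, limma adjusted p = 0.0239). This was a small but even difference between libraries that hardly varied within a line. It missed the threshold when replicate 2 of NCI-H1650Re was left out (limma adjusted p = 0.0917), and when replicate 1 (0.0788) or 2 (0.102) of NCI-H1650 was. EFNA3 was at 7.35 ± 1.12 FPKM in NCI-H1650Re and 9.89 ± 1.52 FPKM in NCI-H1650 and EFNA2 at 1.21 ± 0.465 FPKM in NCI-H1650Re and 1.35 ± 0.555 FPKM in NCI-H1650, and neither passed. EFNA3 did so without both replicate 3 libraries (log2 difference -0.59, limma adjusted p = 0.00216).

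Eph receptors changed in composition and in sum. Their summed level was 119.7, 122.8 and 104.7 FPKM in NCI-H1650Re replicates 1, 2 and 3, against 82.6, 86.9 and 99.7 FPKM in those of NCI-H1650. EPHA2 rose while EPHB2 and EPHB3 fell, and EPHB4 and EPHA1 did not pass. EPHA2, a receptor kinase that is abundant in many carcinomas, was at 64.1, 71.5 and 55.3 FPKM in NCI-H1650Re against 30.3, 31.3 and 42.5 FPKM in NCI-H1650 (log2 difference 0.86, SE 0.14, limma adjusted p = 0.00462). Replicate 3 was the lowest of NCI-H1650Re and the highest of NCI-H1650, and the lines still did not overlap. It made up 54.8 ± 2.93% of all Eph receptor FPKM in NCI-H1650Re and 38.5 ± 3.66% in NCI-H1650. EPHB4, a receptor of B ephrins known from vein identity, was at 41.5, 38.8 and 36.7 FPKM in NCI-H1650Re and 35.2, 37.7 and 38.1 FPKM in NCI-H1650, with a 95% interval of the log2 difference from -0.09 to 0.24. The ratio of EPHA2 to EPHB4 FPKM was accordingly 1.54, 1.84 and 1.51 in NCI-H1650Re and 0.861, 0.830 and 1.12 in NCI-H1650. Relative to its ligand EFNA1, EPHA2 stood at a ratio of 3.72 ± 0.448 in NCI-H1650Re and 1.71 ± 0.392 in NCI-H1650.

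EPHB3 was at 4.60, 3.52 and 3.20 FPKM in NCI-H1650Re against 6.64, 6.88 and 5.85 FPKM in NCI-H1650 (log2 difference -0.65, SE 0.12, limma adjusted p = 0.00660). EPHB2 was at 3.73, 3.36 and 3.85 FPKM in NCI-H1650Re against 4.79, 5.33 and 5.83 FPKM in NCI-H1650 (log2 difference -0.44, SE 0.09, limma adjusted p = 0.00996). Both are B ephrin receptors that sort epithelial cells along the intestinal crypt, and both were lower in every NCI-H1650Re library than in any NCI-H1650 library. Summed with EPHB6 and without EPHB4, they came to 7.75 ± 0.797 FPKM in NCI-H1650Re and 12.6 ± 0.409 FPKM in NCI-H1650. With EPHB4, the most abundant EPHB receptor, the sum was 46.8 ± 3.14 FPKM in NCI-H1650Re and 49.6 ± 1.94 FPKM in NCI-H1650, and the lines overlapped. EPHA1 was at 4.0 ± 0.515 FPKM in NCI-H1650Re and 4.11 ± 0.271 FPKM in NCI-H1650.

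**Figure D3:**
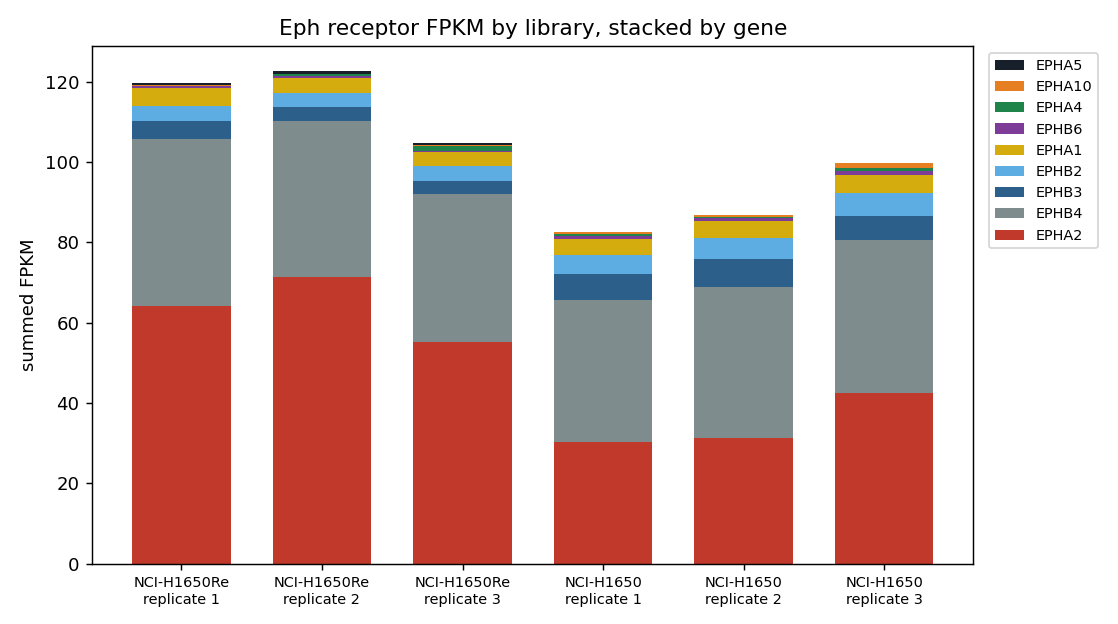
Level of the 9 listed Eph receptors in each library, stacked as summed FPKM, with NCI-H1650Re on the left and NCI-H1650 on the right. The EPHA2 block spans 55.3 to 71.5 FPKM in NCI-H1650Re and 30.3 to 42.5 FPKM in NCI-H1650, the EPHB4 block is of like height in all libraries, and the EPHB3 and EPHB2 blocks are thinner in NCI-H1650Re.

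Since EPHA2 moved against EPHB2 and EPHB3, and SEMA7A with EPHA2, the 250 bases before their annotated starts are shown, 5′ to 3′ on the gene's strand, from RefSeq on GRCh38.p14, with CRE (TGACGTCA) and GC box (GGGCGG) matches on either strand in capitals (a GC box on the other strand reads CCGCCC). The EPHA2 stretch lies at chr1:16156070-16156319 (minus strand), that of EPHB2 at chr1:22710589-22710838 (plus), that of EPHB3 at chr3:184561535-184561784 (plus) and that of SEMA7A at chr15:74433959-74434208 (minus).
EPHA2: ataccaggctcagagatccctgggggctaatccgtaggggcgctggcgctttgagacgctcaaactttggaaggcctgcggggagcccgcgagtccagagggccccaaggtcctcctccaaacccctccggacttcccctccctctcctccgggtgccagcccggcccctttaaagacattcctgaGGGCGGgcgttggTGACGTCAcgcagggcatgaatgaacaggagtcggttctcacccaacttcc
EPHB2: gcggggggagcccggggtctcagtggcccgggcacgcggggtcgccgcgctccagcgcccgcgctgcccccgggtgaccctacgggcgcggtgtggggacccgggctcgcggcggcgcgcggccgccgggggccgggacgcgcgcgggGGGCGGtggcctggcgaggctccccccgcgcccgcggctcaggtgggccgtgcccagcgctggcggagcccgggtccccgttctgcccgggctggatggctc
EPHB3: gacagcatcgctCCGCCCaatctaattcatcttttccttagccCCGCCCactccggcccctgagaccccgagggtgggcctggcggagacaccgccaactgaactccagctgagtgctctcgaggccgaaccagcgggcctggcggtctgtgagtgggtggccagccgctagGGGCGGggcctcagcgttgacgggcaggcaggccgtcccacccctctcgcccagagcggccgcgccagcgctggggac
SEMA7A: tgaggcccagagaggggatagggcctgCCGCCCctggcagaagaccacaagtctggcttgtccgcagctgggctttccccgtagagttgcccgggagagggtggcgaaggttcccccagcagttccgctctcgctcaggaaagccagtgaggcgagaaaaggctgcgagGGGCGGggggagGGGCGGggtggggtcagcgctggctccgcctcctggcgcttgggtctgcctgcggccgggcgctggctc
The GC box occurred 1 time before EPHA2, 1 time before EPHB2 and 3 times each before EPHB3 and SEMA7A. A CRE match was present before EPHA2 and not in the windows of the other 3. EFNB3, SEMA3A, NTN1, NRP1, SEMA6B, UNC5B and EPHA10 had no entry. For each of the 43 guidance genes with one, the start nearest its annotated 5′ end was taken, at most 404185 bases away (ROBO2). The 35116 windows of all genes instead hold every listed start, with no filter on expression, so the shares below compare unlike sets. Over the 43 guidance genes, 32 windows (74.4%) held a GC box, against 42.6% of all 35116 windows. A CRE match was held by 2 (4.65%), against 1.65% of all, and these were EPHA2, which rose, and SEMA4C, which fell. The median GC content of these windows was 67.6% for guidance genes and 58.0% for all. The AP-1 motif (TGANTCA) was in 0 of 43 windows, and in 6.57% of all. The other motifs searched on both strands were CCGGAA for ETS factors (2 windows, 4.65%, against 14.5% of all), GGAATG for TEAD (3 windows, 6.98%, against 11.9%), ACGTG for HIF (4 windows, 9.30%, against 18.5%) and the E-box CANNTG (23 windows, 53.5%, against 61.8%). An E-box of the letters CACGTG also holds ACGTG, and a match is a description of the sequence and not a binding site.

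Of the netrins, 1 fell and the other 2 did not pass. NTN1, the secreted netrin for which the family is known, was at 26.8, 30.1 and 32.7 FPKM in NCI-H1650Re against 38.7, 42.1 and 34.2 FPKM in NCI-H1650 (log2 difference -0.35, SE 0.10, limma adjusted p = 0.0364). The gap was narrow, with less than 2 FPKM between the highest NCI-H1650Re library and the lowest NCI-H1650 library, both replicate 3. NTN4, a netrin of basement membranes and the most abundant, was at 46.3, 50.4 and 57.3 FPKM in NCI-H1650Re and 55.8, 59.0 and 56.6 FPKM in NCI-H1650 (log2 difference -0.16, SE 0.09, limma adjusted p = 0.199), and the lines overlapped through replicate 3. NTN5 was at 2.46 ± 0.253 FPKM in NCI-H1650Re and 1.88 ± 0.532 FPKM in NCI-H1650. The NTN1 call was lost without NCI-H1650Re replicates 1 or 2 (limma adjusted p = 0.0901 and 0.104) and when replicate 1 or 2 of NCI-H1650 was left out (0.1003 and 0.138). NTN4 passed without NCI-H1650Re replicate 3 (0.0343) and without both replicate 3 libraries (0.0357).

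The UNC5 receptors, which bind netrins and can trigger cell death when no netrin is bound, were low. UNC5B was at 2.16, 1.94 and 0.86 FPKM in NCI-H1650Re and 1.61, 2.13 and 3.27 FPKM in NCI-H1650 (log2 difference -0.34, SE 0.24, limma adjusted p = 0.321), and the lines overlapped. Replicate 3 was the lowest in NCI-H1650Re and the highest in NCI-H1650, and without both replicate 3 libraries the difference had the other sign (0.093). UNC5A was at 1.04 ± 0.204 FPKM in NCI-H1650Re and 1.51 ± 0.287 FPKM in NCI-H1650, and did not pass. SLIT3, the listed SLIT ligand, was at 7.52, 8.28 and 7.60 FPKM in NCI-H1650Re and 7.53, 8.42 and 6.24 FPKM in NCI-H1650 (log2 difference 0.08, SE 0.11, limma adjusted p = 0.616), and its sign turned without NCI-H1650 replicate 3 (-0.028). ROBO1, a SLIT receptor, was at 12.8, 11.5 and 7.82 FPKM in NCI-H1650Re and 15.5, 14.2 and 11.8 FPKM in NCI-H1650 (log2 difference -0.36, SE 0.17, limma adjusted p = 0.148). Its replicate 3 was the lowest in both lines, and the libraries of the lines overlapped. ROBO3, known from axons that cross the midline, was at 2.89 ± 0.710 FPKM in NCI-H1650Re and 2.44 ± 0.621 FPKM in NCI-H1650 and did not pass. Without both replicate 3 libraries ROBO1 passed as lower (log2 difference -0.27, limma adjusted p = 0.0374) and ROBO3 as higher (0.45, 0.0171).

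Below the filter stood 8 genes, 7 of them receptors, and 5 of these receptors were among the genes that the authors marked as regulated, for which counts were deposited. EPHA5, an Eph receptor of neurons, had 95, 133 and 57 counts in NCI-H1650Re against 24, 28 and 3 counts in NCI-H1650, or 0.56, 0.73 and 0.37 FPKM against 0.13, 0.17 and 0.02 FPKM. In the authors' deposited table its log2 fold change is 2.32 with an FDR of 4.08e-06, and limma with no filter gave an adjusted p of 0.0141. It made up 0.472 ± 0.121% of all Eph receptor FPKM in NCI-H1650Re and 0.124 ± 0.0923% in NCI-H1650.

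The other 4 marked receptors were lower. UNC5C, a netrin receptor, had 42, 90 and 51 counts in NCI-H1650Re against 210, 177 and 98 counts in NCI-H1650, and EPHB6, an Eph receptor without kinase activity, had 28, 35 and 18 counts in NCI-H1650Re against 65, 58 and 70 counts in NCI-H1650. Both passed limma with no filter (adjusted p = 0.0172 for UNC5C and 0.0104 for EPHB6), where 29.3% of all 12659 genes did. EPHA10, another kinase-inactive Eph receptor, had 23, 23 and 21 counts in NCI-H1650Re against 52, 44 and 94 counts in NCI-H1650, and PLXNA4, a class 3 semaphorin receptor, had 16, 16 and 20 counts in NCI-H1650Re against 58, 57 and 39 counts in NCI-H1650. The libraries of the lines did not overlap for either, but neither passed limma with no filter (adjusted p = 0.0641 for EPHA10 and 0.115 for PLXNA4). The authors' deposited table gives log2 fold changes of -1.45 for UNC5C, -1.34 for EPHB6, -1.61 for EPHA10 and -1.61 for PLXNA4. With SEMA4G and EFNB3, the authors marked 2 guidance genes up and 5 down, 14.0% of the 50, against 6.79% of all genes in the table. SEMA4G and EFNB3 were the only genes called above that bore a mark, so EPHA2, SEMA4B and SEMA7A, among others, bore none. Of the called genes, EFNA1 alone had an authors' FDR above 0.05 (0.0632). Of the tested genes that did not pass, only NRP2 (0.0117) and PLXND1 (0.0148) had one below it. EPHA4, which binds both classes of ephrin, was at 0.11, 0.42 and 1.26 FPKM in NCI-H1650Re and 0.46, 0.35 and 0.88 FPKM in NCI-H1650, and ROBO2 at 0.350 ± 0.0436 FPKM in NCI-H1650Re and 0.217 ± 0.164 FPKM in NCI-H1650.

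Each of the 16 called genes was set beside its neighbours on the chromosome (GENCODE 29 positions on GRCh38). The 24 nearest tested genes, 12 on each side, had a median log2 difference of -0.40 around EFNA5 and of -0.11 to 0.19 around the other 15. The 4 genes that rose stood 0.64 to 0.83 above the median of their neighbours. Of the 12 that fell, 10 lay among neighbours with a median above 0 and 2, EFNA5 and SEMA3C, among neighbours below 0. The median of all tested genes was itself 0.03. The 16 genes were chosen for their own difference, so a distance from their neighbours was in part set by that choice. The 24 neighbours spanned from 0.843 Mb around EFNB3 to 16.3 Mb around EFNA5. EFNA5 (chromosome 5, 107376889 to 107670895) lay only 0.08 below its neighbours, whereas SEMA4B (chromosome 15, 90160604 to 90229679) and SEMA4G (chromosome 10, 100969518 to 100985871) each lay 0.71 below theirs. SEMA3A and SEMA3C share a stretch of chromosome 7 with SEMA3D and SEMA3E, and there SEMA3A rose, SEMA3C fell and the other two did not pass. EFNA1 and EFNA3 are close neighbours on chromosome 1, where 8 of the 24 genes nearest to EFNA1 rose and 2 fell.

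**Figure D4:**
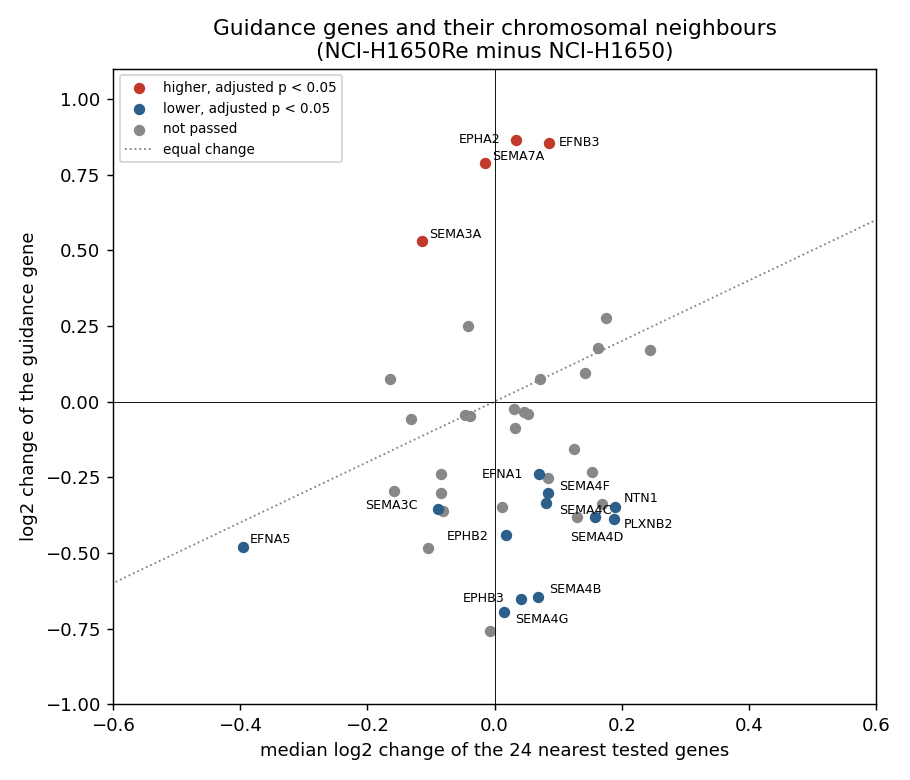
Log2 difference of each tested guidance gene (vertical axis) against the median log2 difference of the 24 nearest tested genes on its chromosome (horizontal axis), both NCI-H1650Re minus NCI-H1650. Red, blue and grey points are genes that rose, fell or did not pass, and the dotted line marks equal change. EFNA5 lies near the line at -0.40, and the other called genes lie off it, with neighbour medians of -0.11 to 0.19.

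Partners of these receptors were taken from a list of 89 symbols, of which 74 were in the table and 68 were tested. Of these 11 rose, 15 fell and 42 did not pass, with a median log2 difference of 0.04. That is 38.2% called, 16.2% higher and 22.1% lower, against 30.5% of all tested genes, 16.6% higher and 13.9% lower. Among netrin receptors and partners, 2 of 3 tested fell, FLRT2, a membrane protein that binds UNC5 receptors, to 0.183 ± 0.0757 FPKM in NCI-H1650Re against 1.20 ± 0.255 FPKM in NCI-H1650 (log2 difference -0.89), and NEO1, the netrin and RGM receptor neogenin (-0.32), which is named here after its value was seen. Of 9 co-receptors and further ligands 2 rose and 3 fell: PGF, a VEGF relative that binds neuropilins, was at 1.36 ± 0.555 FPKM in NCI-H1650Re and 0.367 ± 0.0850 FPKM in NCI-H1650 (0.76), and ERBB2, a receptor kinase that associates with B plexins, at 34.2 ± 5.22 FPKM in NCI-H1650Re and 49.5 ± 3.01 FPKM in NCI-H1650 (-0.53).

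Of 21 plexin effectors 3 rose and 3 fell. MICAL2, an actin-oxidising enzyme of the family that acts below plexins, was at 8.49 ± 0.706 FPKM in NCI-H1650Re and 4.57 ± 0.567 FPKM in NCI-H1650 (log2 difference 0.77), the kinase FYN at 4.31 ± 0.867 FPKM in NCI-H1650Re and 2.30 ± 0.303 FPKM in NCI-H1650 (0.68), and DPYSL5, a collapsin response mediator, at 0.823 ± 0.372 FPKM in NCI-H1650Re and 2.24 ± 0.842 FPKM in NCI-H1650 (-0.81). Of 19 Eph effectors 2 rose and 5 fell, among them the Rac exchange factor VAV3, at 7.32 ± 1.87 FPKM in NCI-H1650Re and 17.6 ± 0.639 FPKM in NCI-H1650 (-1.18), and the Rac-inactivating chimaerin CHN1, at 5.48 ± 1.07 FPKM in NCI-H1650Re and 10.1 ± 1.27 FPKM in NCI-H1650 (-0.79). The phosphatase PTPN13 was at 4.83 ± 1.38 FPKM in NCI-H1650Re and 8.46 ± 0.215 FPKM in NCI-H1650 (-0.72) and the adaptor GRIP1 at 0.853 ± 0.482 FPKM in NCI-H1650Re and 1.79 ± 0.239 FPKM in NCI-H1650 (-0.62). Of 16 SLIT and ROBO effectors 4 rose and 2 fell. Limma adjusted p of the named partners ran from 0.00139 for VAV3 to 0.0358 for GRIP1. FLRT2, DPYSL5 and GRIP1 averaged 1 FPKM or more only in NCI-H1650, and PGF only in NCI-H1650Re, so these passed the filter through their high line. With no filter the limma adjusted p was 0.00144 for FLRT2, 0.0316 for DPYSL5, 0.0331 for GRIP1 and 0.0147 for PGF. The calls of DPYSL5, PGF and GRIP1 were lost without NCI-H1650Re replicate 2 (0.0760, 0.0664 and 0.125) and when replicate 1 (0.102, 0.0510 and 0.111) or 2 (0.115, 0.0686 and 0.0707) of NCI-H1650 was left out. DPYSL5 also missed without NCI-H1650Re replicate 3 (0.0508), GRIP1 when replicate 1 of NCI-H1650Re (0.0916) or replicate 3 of NCI-H1650 (0.0855) was left out, and ERBB2 without NCI-H1650 replicate 2 (0.0508).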

How the data were processed

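Polyadenylated RNA of 3 NCI-H1650Re and 3 NCI-H1650 libraries was sequenced. Per the submitters' processing notes, the tools were HISAT2, Bowtie2, RSEM and DESeq2 (no versions stated) and the build mm10, a mouse build, although the deposited identifiers are human, and no source used here gives a human build. The authors deposited FPKM for 12659 genes in each library. The authors deposited read counts for 860 genes, those marked as regulated. The authors' deposited table also gives a log2 fold change and an adjusted p-value (FDR) per gene.

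From these, log2(FPKM + 1) was tested with limma 3.58.1 (R 4.3.3, variance trend on) over 11764 genes that averaged 1 FPKM or more in at least 1 line, with Benjamini-Hochberg adjustment over all of them and a threshold of 0.05. On simulated data of 11764 genes, 56% of planted log2 changes of 0.5 and 94% of those of 1 were recovered, with 9 false calls. Changes were planted only in genes above a set level. The called genes SEMA4G, SEMA4D, SEMA3A, SEMA4F, EPHB2, EPHB3 and EFNB3 did not reach it. Noise was drawn independently for each gene and library. Recovery at low levels, and false calls where a whole library shifts, were therefore not measured. Depth per library, 17 to 22.3 M fragments, was estimated from the ratio of counts to FPKM, with relative depth from 283 genes and the level from 18 genes with 1 transcript. Counts were tested with edgeR 4.0.16 and DESeq2 1.42.0 as alternatives. Other alternatives were the pseudocount, the filter, the scaling, the variance trend, a block for the replicate number and leaving out libraries. Positions come from GENCODE 29 and promoters from RefSeq (43 of 50 genes matched by symbol).

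All guidance genes are named. Full values are given for those past the threshold and for the most abundant of each family, and of the partners for the 10 largest changes among those past the threshold. UNC50 (log2 difference 0.14, limma adjusted p = 0.168) matched by its letters and was set aside. The genes and lists were chosen with earlier results of these data known.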

Additional observations from a re-analysis of the deposited data

How the results depend on the processing

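Of the 16 guidance genes called, 8 kept their call under every alternative run (EFNA5, EFNB3, EPHA2, EPHB2, EPHB3, SEMA4B, SEMA4G and SEMA7A), and all 16 kept their direction. SEMA4G was not tested with the filter at 5 FPKM, which it did not reach. Leaving out each library in turn gave 5 to 17 falls and 3 to 4 rises among guidance genes, 5 to 16 ligands called, 3 to 5 receptors, 9 to 29 partners and 1785 to 4478 of all genes. The median log2 difference then ran from -0.28 to -0.18 for ligands and from -0.28 to -0.12 for receptors. Without both replicate 3 libraries 19 guidance genes fell, 9 receptors were called, and the medians were -0.29 for ligands and -0.016 for receptors; 15 genes passed both ways, 10 passed only then and 1, SEMA4D, only with all libraries. The cause was not tested. With no filter 7 receptors were called, since low receptors then enter. SLIT3, not called, ran from -0.028 to 0.16 when each library was left out in turn, and changed sign without NCI-H1650 replicate 3 (-0.028) and without both replicate 3 libraries (-0.012), and so did UNC5B without both replicate 3 libraries (0.093). Tests of deposited counts, added for genes under the filter after seeing the data, called EPHA10 (edgeR adjusted p = 0.00635) and PLXNA4 (0.00130) among genes the authors had selected. Counting UNC50 as a receptor, also added after seeing the data, left 4 receptors called.

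The labels do not say whether the replicate numbers pair the samples. Deviations of same-numbered libraries from the mean of their line correlated at 0.17, -0.04 and 0.21, and NCI-H1650Re replicate 1 correlated best with NCI-H1650 replicate 2 (0.23). Deviations from a mean of 3 libraries are not independent, so these values cannot decide the question. With the replicate block 4 guidance genes rose and 12 fell, with 10 ligands, 6 receptors, 22 partners and 3522 of all genes called. NTN1 (limma adjusted p = 0.0558) and SEMA4D (0.0569) missed the threshold under the block, and ROBO1 passed it (0.0273). Counts behind the guidance genes under the filter ran from 3 to 210 per library where deposited, and the part of depth in their calls was not tested.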
